A study of Mus musculus with 6 samples.

Results

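A set of 10 classic genes of microglia was followed in RNA from an astrocyte preparation of the mouse brain. The genes, *Csf1r*, *Cx3cr1*, *Tmem119*, *P2ry12*, *Trem2*, *Tyrobp*, *Ctss*, *Cd68*, *Aif1* and *Itgam*, were chosen by name as known microglial genes, by a rule that uses no measured value, and all 10 had a row among the 17193 genes listed. Wild-type C57BL/6 mice aged 3 months received quinpirole, an agonist of the dopamine receptor DRD2, or the control treatment that the labels call Mock, with 3 libraries in each group. Both groups went through the same isolation, in which digested brain was cleared of myelin on Percoll and the cells were then captured with microbeads against ACSA-2, an epitope of the astrocyte protein encoded by *Atp1b2*. The dose given to these mice is not given in the sources used here. No label says whether each library came from a separate mouse, so the p-values below measure only the spread between these libraries, which may be technical.

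Microglia are the resident macrophages of the brain parenchyma and, unlike astrocytes, neurons and oligodendrocytes, descend from the myeloid lineage. In the resting, or homeostatic, state they depend on signals through the receptor CSF1R and carry the fractalkine receptor CX3CR1, the purinergic receptor P2RY12 and the surface protein TMEM119. When they take up debris they rely on the receptor TREM2 with its adaptor TYROBP, on lysosomal proteins such as CD68 and on proteases such as cathepsin S. AIF1, also called IBA1, and the integrin subunit CD11b, encoded by *Itgam*, mark microglia and other macrophages in either state.

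The preparation held astrocyte and microglia transcripts, together with some genes listed as markers of other cells. FPKM, the unit used throughout, is the number of fragments per kilobase of transcript scaled to the mapped fragments of the library, so levels of different genes can be set side by side. Of 12 astrocyte markers, 11 reached a mean of 1 FPKM and their sum was 1540 to 1690 FPKM in the mock libraries and 1510 to 1550 FPKM in the quinpirole libraries, led by *Gfap* at 482 to 560 FPKM. The 10 microglia genes summed to 447, 463 and 480 FPKM in the 3 mock libraries and to 467, 513 and 470 FPKM in the 3 quinpirole libraries. All 17193 listed genes summed to 401769 to 413730 FPKM in the mock and 425244 to 437164 FPKM in the quinpirole libraries. Such sums are therefore not shares of a constant total. The neuronal gene *Snap25* stayed between 0 and 0.0773 FPKM, the myelin gene *Mog* between 0 and 0.0639 FPKM and the endothelial gene *Pecam1* between 0.011 and 0.0596 FPKM. Some genes of other lists were high, although many genes of those lists were low. The smooth muscle actin gene *Acta2* lay at 2520 to 2880 FPKM, the ependymal regulator *Foxj1* at 118 to 130 FPKM, the oligodendrocyte enzyme gene *Cnp* at 151 to 171 FPKM and the neuronal gene *Stmn2* at 53.3 to 67.2 FPKM. Next in the same lists came *Pdgfrb* at 20.7 to 27.2 FPKM and *Rarres2* at 15.5 to 20.0 FPKM. *Olig2* (43.4 to 48.9 FPKM) and *Tubb3* (16.6 to 22.3 FPKM) came next in the oligodendrocyte lineage and neuron lists. A mean of 1 FPKM was reached by 4 of 10 endothelial and mural, 4 of 6 ependymal, 6 of 10 oligodendrocyte lineage and 3 of 10 neuron markers, and the median gene of these lists lay at 0.475, 4.85, 1.69 and 0.248 FPKM, against 55.7 FPKM for the astrocyte markers. The tables hold no counts, and the spacing of weak values put the depth at 22200000 to 27800000 fragments per library. In such bulk RNA, fewer microglia and less RNA of a gene per microglial cell cannot be told apart.

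**Figure D1:**
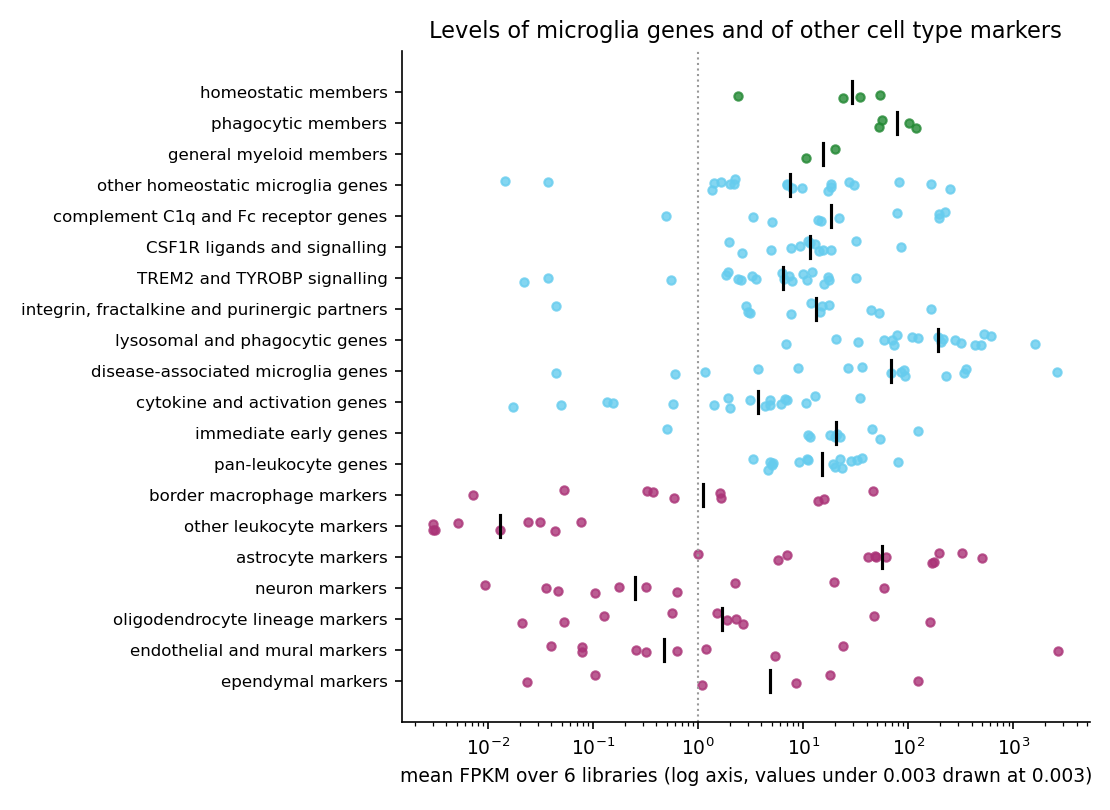
Each point is the mean FPKM over the 6 libraries of 1 gene of a list (horizontal axis, log scale), with 1 row for each gene list of microglia, other leukocytes and other brain cells, a black tick at the median of each list and a dotted line at 1 FPKM. The microglial lists lie mostly above 1 FPKM, whereas the other leukocyte markers all lie under 1 FPKM.

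The listed markers of blood-borne leukocytes were close to undetected where they had a row. Of 14 markers of monocytes, neutrophils, T cells, B cells and natural killer cells, 9 had a row and all 9 had means under 1 FPKM, with sums of 0.198 to 0.43 FPKM in the mock and 0.0358 to 0.0963 FPKM in the quinpirole libraries. The highest 2 were the B cell gene *Cd79a*, at a mean of 0.122 FPKM in the mock and 0.0322 FPKM in the quinpirole group, and the natural killer cell gene *Nkg7*, at 0.0871 FPKM in the mock group and 0 in each of the 3 quinpirole libraries. *Ly6c2*, *S100a9*, *Ly6g*, *Cd3e* and *Cd3g* had no row. The 9 markers with a row were under the filter of 1 FPKM, so their differences between the groups were not tested. Of 10 markers of the macrophages at the brain's borders, 5 had means under 1 FPKM and 5 reached it. The receptor genes *Mrc1* (at most 0.389 FPKM), *Cd163* (at most 0.099 FPKM) and *Lyve1* (at most 0.0282 FPKM) were near 0 in all 6 libraries. In contrast, *Stab1*, a scavenger receptor gene, lay at 36.0 to 56.2 FPKM, *Maf*, a transcription factor gene, at 13.8 to 21.1 FPKM and *Ms4a7* at 12 to 16.5 FPKM, the latter 2 named after their values were seen.

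The microglia genes lay far apart in level. *Ctss*, which encodes cathepsin S, was the highest and ranked 533 of the 17193 listed genes by mean FPKM, followed by *Tyrobp* at rank 662, and their libraries overlapped although *Ctss* was above *Tyrobp* in 6 of 6 libraries. *Cd68*, *Csf1r* and *Trem2* formed the next step at ranks 1359, 1446 and 1467, with overlapping values and an order that held in only 3 of 6 libraries for *Cd68* over *Csf1r* and in 2 of 6 for *Csf1r* over *Trem2*. *Cx3cr1* lay below them at rank 2293, then came *Tmem119* at rank 3389 and *Itgam* at rank 4007, which overlapped each other. *Aif1* at rank 6385 and *P2ry12* at rank 10876 were the lowest, each apart from its neighbours in every library. The gene-wise mean FPKM had a median of 29.3 for the 4 homeostatic genes (*Csf1r*, *Cx3cr1*, *Tmem119*, *P2ry12*) and of 78.5 for the 4 phagocytic genes (*Trem2*, *Tyrobp*, *Ctss*, *Cd68*), against 11.4 for all 12255 genes tested.

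**Figure D2:**
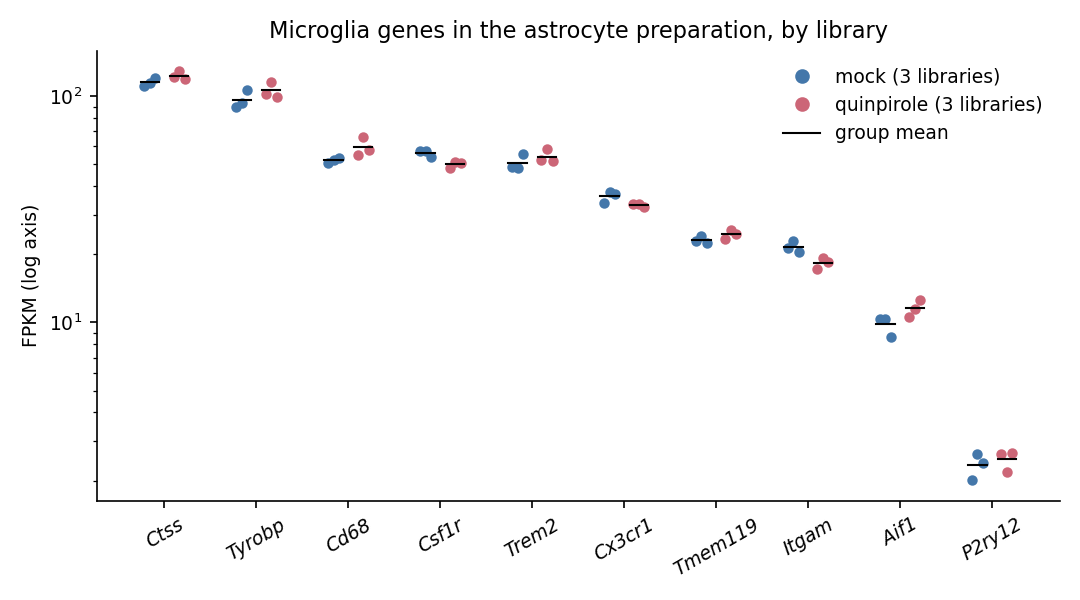
FPKM (vertical axis, log scale) of each of the 10 microglia genes in the 6 libraries, with 1 point per library, the mock and quinpirole groups in separate colours and a bar at each group mean. The genes run from *Ctss* at 111 to 129 FPKM down to *P2ry12* at 2.01 to 2.64 FPKM, and the 2 groups of each gene lie close together on this scale.

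The starts of these genes are shown because PU.1, the transcription factor encoded by *Spi1*, is the master regulator of the myeloid lineage and binds a purine-rich core, GAGGAA. RefSeq promoter windows on GRCm38.p6, each of 300 bases with 250 before and 50 after the annotated start, were matched for 7 of the 10 genes (*Csf1r*, *Tmem119* and *Tyrobp* had none). The 6 letters occurred on either strand in 5 of the 7 windows, against 28.3% of 32851 windows of the same length, and the longer GAGGAAGT, which contains them, occurred in 1 of the 7, that of *Ctss*, against 3.2%. The matches began 40 bases before the start in *Trem2*, 7 before in *Aif1*, 84 and 15 before in *Itgam*, 164 before in *Ctss* and 225 before in *Cd68*. *Ctss*, *Cd68* and *Itgam* also had a match after the start, at positions 1, 30 and 33. The windows of *Cx3cr1* and *P2ry12* held none. Below are the 100 bases before the start of the genes with a match in that stretch and of the 2 homeostatic genes without one in the window. The same stretches of *Ctss* and *Cd68*, which are not shown, held 0 matches. Each stretch is read 5′ to 3′ on the strand of the gene, with GAGGAA or its reverse complement in capitals.
Trem2, chr17:48346301-48346400, plus strand: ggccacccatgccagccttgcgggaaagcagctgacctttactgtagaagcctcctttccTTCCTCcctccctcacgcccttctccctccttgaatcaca
Aif1, chr17:35176053-35176152, minus strand: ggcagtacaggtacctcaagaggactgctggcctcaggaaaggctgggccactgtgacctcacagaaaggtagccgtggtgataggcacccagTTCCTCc
Itgam, chr7:128062540-128062639, plus strand: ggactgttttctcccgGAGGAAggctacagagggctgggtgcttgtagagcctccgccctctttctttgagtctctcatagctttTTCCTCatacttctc
Cx3cr1, chr9:120068297-120068396, minus strand: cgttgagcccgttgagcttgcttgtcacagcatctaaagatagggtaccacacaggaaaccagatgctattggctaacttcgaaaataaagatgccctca
P2ry12, chr3:59262986-59263085, minus strand: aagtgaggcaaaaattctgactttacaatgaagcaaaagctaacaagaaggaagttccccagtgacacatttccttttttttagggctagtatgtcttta
These matches describe the letters only, and binding of PU.1 was not measured. *Spi1* itself was expressed at 18.2 ± 1.24 FPKM (SD, n = 3) in the mock and 18.9 ± 2.11 FPKM (SD, n = 3) in the quinpirole libraries.

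Quinpirole administration was compared with mock treatment on the log2(FPKM + 1) scale, which understates the change of low genes, by limma across the 12255 genes with a mean of at least 1 FPKM, and differences are given as quinpirole minus mock. None of the 10 microglia genes reached a Benjamini-Hochberg adjusted p-value under 0.05, where 10.9% of all tested genes did (5.74% higher and 5.18% lower). Of the 10 genes, 5 had an unadjusted limma p-value under 0.05, against 31.3% of all tested genes. *Csf1r* and *Itgam* both passed with a minimum of 5 FPKM and with robust eBayes, *Csf1r* alone passed with median ratio scaling, with quantile normalization and without the third mock library, and none passed in the other settings tried. Over the whole table, the 1339 genes that passed fell to 2 when the replicate number was added as a block and to between 3 and 1182 when 1 library was left out (3 without the second mock library). Of the genes called in the lists below, none passed with the block. The 3 quinpirole libraries all lay above the 3 mock libraries for *Cd68* and *Aif1* (2 of 10, against 20.0% of tested genes) and all lay below them for *Csf1r*, *Cx3cr1* and *Itgam* (3 of 10, against 16.9%), which made 5 of 10 genes without overlap, against 36.9% of tested genes. The median log2 difference of the 10 genes was 0.09, against 0.02 over all tested genes, with 7 means higher and 3 lower.

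**Figure D3:**
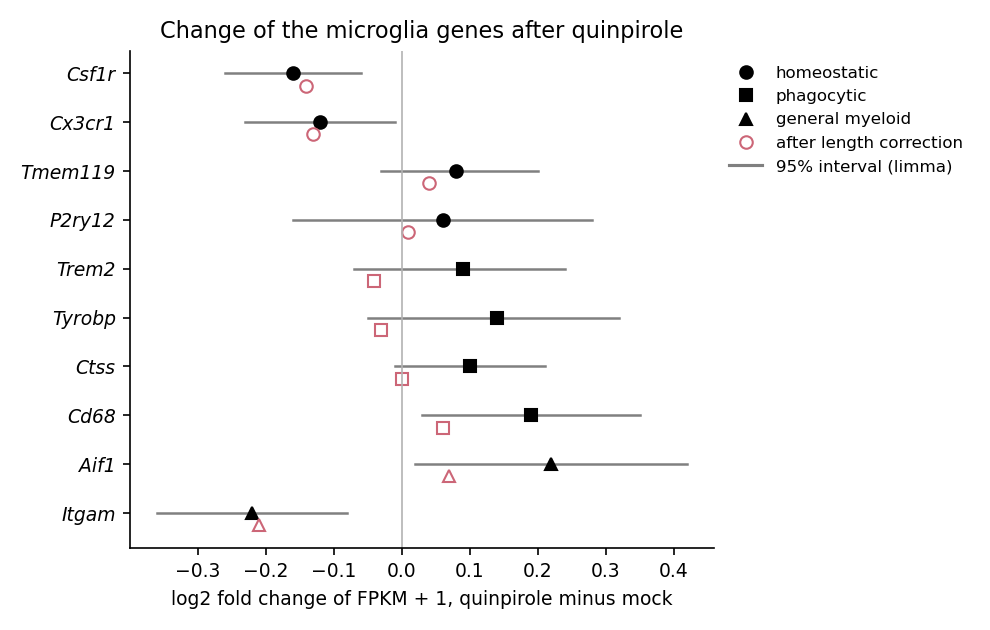
Log2 difference between quinpirole and mock libraries (horizontal axis) for each of the 10 microglia genes with its 95% confidence interval from limma, beside the same difference after correction for coding transcript length. The intervals of *Csf1r*, *Cx3cr1* and *Itgam* lie under 0 and those of *Cd68* and *Aif1* above 0, and with the correction the phagocytic genes and *Aif1* lie between -0.04 and 0.07.

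Among the homeostatic genes, *Csf1r* encodes the tyrosine kinase receptor for CSF1 and IL-34 on which the survival of microglia depends. It measured 57.0, 57.5 and 54.0 FPKM in the mock libraries and 48.3, 51.4 and 50.9 FPKM in the quinpirole libraries. Every quinpirole value was under every mock value. The group means were 56.2 ± 1.87 and 50.2 ± 1.65 FPKM (SD, n = 3), a log2 difference of -0.16 (SE 0.04, 95% CI -0.26 to -0.06) with a limma adjusted p of 0.0531, and *Csf1r* had the smallest adjusted p of the 10 genes.

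*Cx3cr1* encodes the receptor for fractalkine, a chemokine made by neurons (GRCm38, 9:119901616-120069879, minus strand). Its mock libraries held 33.9, 37.7 and 36.8 FPKM and its quinpirole libraries 33.5, 33.4 and 32.5 FPKM. The groups did not overlap, but the lowest mock library and the highest quinpirole library were close to touching. The means were 36.2 ± 2.01 and 33.2 ± 0.536 FPKM (SD, n = 3), and the log2 difference was -0.12 (SE 0.05, limma adjusted p = 0.14).

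*Tmem119*, a surface protein that separates microglia from other macrophages (5:113793729-113800516, minus strand), measured 22.9, 24.2 and 22.4 FPKM in the mock and 23.5, 25.7 and 24.6 FPKM in the quinpirole libraries. These ranges overlapped, and the log2 difference of 0.08 had a 95% interval of -0.03 to 0.2 (limma adjusted p = 0.295). *P2ry12*, the ADP receptor through which microglial processes find sites of injury (3:59216272-59262871, minus strand), was by far the weakest member, at 2.01, 2.61 and 2.39 FPKM in the mock and 2.61, 2.18 and 2.64 FPKM in the quinpirole libraries. That corresponds to an estimated 112 to 153 fragments per library, against 4371 to 6186 for *Csf1r*. The groups of *P2ry12* overlapped, with a log2 difference of 0.06 (95% CI -0.16 to 0.28, limma adjusted p = 0.695). The level of *P2ry12* was between 0.0353 and 0.054 times that of *Csf1r* in each of the 6 libraries, so the homeostatic genes were far from equal in level.

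Among the phagocytic genes, *Trem2* encodes a lipid- and lipoprotein-sensing receptor (17:48346401-48354147, plus strand). It measured 48.9, 48.4 and 55.3 FPKM in the mock and 52.3, 58.3 and 51.6 FPKM in the quinpirole libraries. The groups overlapped, since the third mock library was above 2 of the 3 quinpirole libraries. The log2 difference was 0.09 (95% CI -0.07 to 0.24, limma adjusted p = 0.416).

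*Tyrobp* encodes the adaptor, also known as DAP12, that carries the TREM2 signal into the cell (7:30413760-30417585, plus strand). Its mock libraries held 89.3, 93.3 and 106 FPKM and its quinpirole libraries 102, 115 and 99.7 FPKM. The third mock library again lay above 2 quinpirole libraries, and the log2 difference of 0.14 had an interval of -0.05 to 0.32 (limma adjusted p = 0.281).

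*Ctss*, a protease of the endosome and lysosome (3:95526786-95556403, plus strand), measured 111, 114 and 120 FPKM in the mock and 122, 129 and 119 FPKM in the quinpirole libraries. Its groups overlapped by 1 mock and 1 quinpirole library, and the log2 difference was 0.1 (95% CI -0.01 to 0.21, limma adjusted p = 0.197). *Cd68*, a lysosomal membrane glycoprotein of phagocytes (11:69664213-69666153, minus strand), measured 50.5, 52.4 and 53.2 FPKM in the mock and 55.1, 66.3 and 57.8 FPKM in the quinpirole libraries. It was the only phagocytic gene whose groups stood apart, with means of 52.0 ± 1.38 and 59.7 ± 5.84 FPKM (SD, n = 3) and a log2 difference of 0.19 (SE 0.07, limma adjusted p = 0.104).

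The pair of general myeloid genes differed in direction. *Aif1*, an actin-binding protein (17:35170991-35176068, minus strand), measured 10.4, 10.4 and 8.65 FPKM in the mock and 10.6, 11.5 and 12.6 FPKM in the quinpirole libraries. The quinpirole libraries were all higher, the closest by a small margin, and the log2 difference was 0.22 (95% CI 0.02 to 0.42, limma adjusted p = 0.135). *Itgam*, the alpha subunit of the complement receptor CR3 (7:128062640-128118491, plus strand), measured 21.3, 22.9 and 20.4 FPKM in the mock and 17.2, 19.2 and 18.5 FPKM in the quinpirole libraries. All 3 quinpirole libraries were lower, with means of 21.5 ± 1.24 and 18.3 ± 1.03 FPKM (SD, n = 3), a log2 difference of -0.22 (SE 0.06, 95% CI -0.36 to -0.08) and a limma adjusted p of 0.0543. *Itgam* shares 3450 bases, 68.7% of its exonic sequence, with *Gm49368*, a gene on the same strand that had no row, and *Csf1r* shares 15.1% with *Hmgxb3* on the opposite strand, so how reads were divided within these overlaps makes both values less certain.

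The homeostatic and phagocytic genes were then compared within each library, by subtracting the mean log2(FPKM + 1) of the 4 phagocytic genes from that of the 4 homeostatic genes. This difference of levels was -1.87, -1.78 and -1.98 in the mock and -1.99, -2.16 and -1.96 in the quinpirole libraries. The mean of the phagocytic genes was thus the higher in all 6 libraries. This did not hold gene by gene, since *Csf1r* overlapped *Cd68* and *Trem2* in level. The mock and quinpirole groups overlapped, with the third mock library below the third quinpirole library. The mean was -1.88 ± 0.1 (SD, n = 3) in the mock and -2.04 ± 0.1 (SD, n = 3) in the quinpirole group, a change of -0.16 that is given as a description without a test. In summed FPKM, the homeostatic genes gave 116, 122 and 116 in the mock and 108, 113 and 111 in the quinpirole libraries, with no overlap. The phagocytic genes gave 300, 308 and 335 in the mock and 331, 369 and 328 in the quinpirole libraries, with overlap. The ratio of the sums was 0.386, 0.396 and 0.345 in the mock and 0.326, 0.305 and 0.338 in the quinpirole libraries, so the groups stood apart on this scale, by the smallest margin between the third libraries. The 2 scales weight the genes differently, since *Csf1r* and *Cx3cr1* make up most of the homeostatic sum while *P2ry12* and *Tmem119* count equally with them in the mean of logs. Moving *Aif1* to the homeostatic and *Itgam* to the phagocytic genes reduced the change in the mean of logs from -0.16 to -0.04.

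The 4 homeostatic genes had a median log2 difference of -0.03, with 2 means higher and 2 lower. The 4 phagocytic genes had a median of 0.12, with 4 of 4 means higher, where 53.8% of all tested genes had a higher mean.

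The phagocytic genes also varied alike within each group, a pattern that was noticed after the values were seen. For *Trem2*, *Tyrobp*, *Ctss* and *Cd68* alike, the third library was the highest of the mock group and the second the highest of the quinpirole group. This held for 4 of 4 phagocytic, 0 of 4 homeostatic and 0 of 2 general myeloid genes, and for 18.2% of all tested genes. It held for 8 of 9 tested genes of complement C1q and Fc receptors and for 13 of 19 lysosomal genes, but also for 4 of 4 tested ependymal markers. It held for 7 of 13 disease-associated, 6 of 16 pan-leukocyte, 3 of 17 TREM2 and TYROBP signalling and 2 of 18 further homeostatic genes, so it was neither general among microglial lists nor limited to them. Replicate libraries of a group therefore differed in these genes together. The same libraries also had the highest sum over all listed genes in their group. Mock library 3 summed to 413730 FPKM, against 401769 and 402354 FPKM in mock libraries 1 and 2. Quinpirole library 2 summed to 437164 FPKM, against 426492 and 425244 FPKM in quinpirole libraries 1 and 3. Whether the pattern goes with these sums was not tested, nor was what set these libraries apart.

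**Figure D4:**
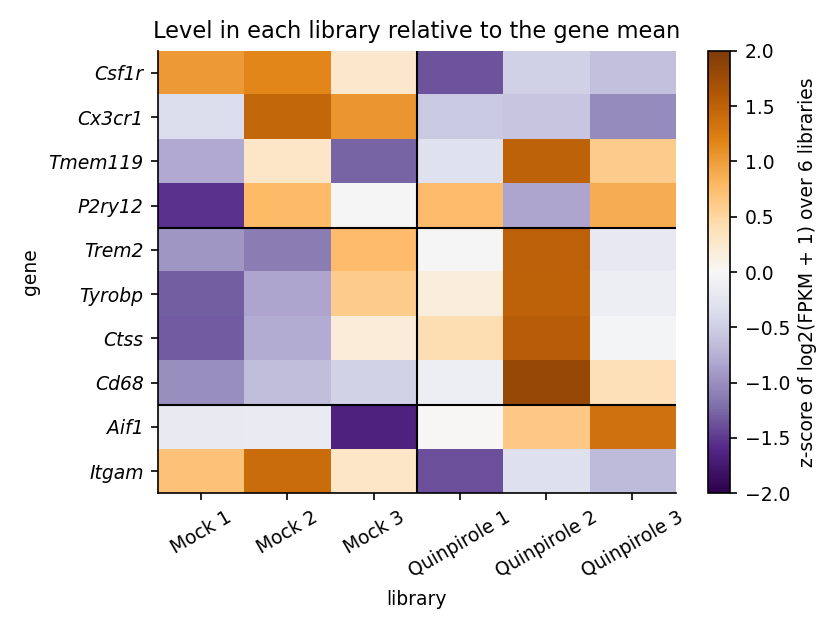
Heat map of the 10 microglia genes (rows) in the 6 libraries (columns), each gene's log2(FPKM + 1) expressed as a z-score over the libraries. The phagocytic rows share their highest mock library, the third, and their highest quinpirole library, the second, whereas *Csf1r*, *Cx3cr1* and *Itgam* are higher in every mock column than in any quinpirole column.

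Differences between the groups moved with transcript length across the whole table, and the 2 classes of microglia genes differ in length. When all tested genes were divided into 5 equal bins by the length of the transcript with the longest coding sequence, the median log2 difference ran from 0.13 in the shortest bin (102 to 1531 nucleotides) through 0.07, 0.02 and -0.02 to -0.13 in the longest bin (from 4666 nucleotides). All 4 phagocytic genes and *Aif1*, at 597 to 1355 nucleotides, lie in the shortest bin. *Tmem119* and *P2ry12* lie in the second, *Cx3cr1* in the third, and *Csf1r* and *Itgam* in the fourth. After each library was corrected for its trend with coding transcript length, the median difference of the phagocytic genes was -0.01, with 1 of 4 positive, and that of the homeostatic genes was -0.06. The log2 difference of *Cd68* became 0.06, that of *Aif1* 0.07, that of *Trem2* -0.04, that of *Tyrobp* -0.03 and that of *Ctss* -0.00. *Csf1r* was then at -0.14 (limma adjusted p = 0.0997), *Cx3cr1* at -0.13 and *Itgam* at -0.21 (limma adjusted p = 0.0984), and the change in the homeostatic minus phagocytic level shrank from -0.16 to -0.05. None of the 10 genes passed the limma test with this correction or with that for exonic length, where 1.74% and 4.0% of all tested genes did (3 of the 10 at an unadjusted p under 0.05 with either correction). The correction was chosen after the data were seen, and it would also remove a change of expression that goes with length.

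**Figure D5:**
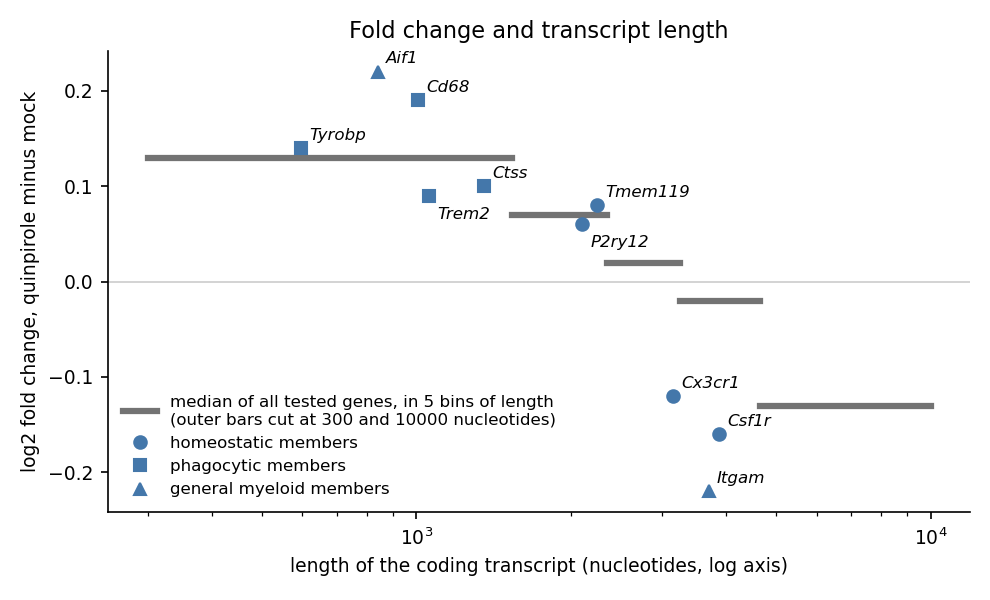
Log2 difference between quinpirole and mock libraries (vertical axis) against coding transcript length in nucleotides (horizontal axis, log scale), with the 10 microglia genes as labelled points and the median of all tested genes in each of the 5 bins of length as bars. The phagocytic genes, at 0.09 to 0.19, lie on both sides of the median of their bin, 0.13, whereas *Csf1r* (-0.16) and *Itgam* (-0.22) lie under that of theirs, -0.02.

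Outside the 10 genes, the wider homeostatic list was present but uneven. Of 20 further genes, 18 were tested, and their median log2 difference was 0.04. *Sall1*, a transcription factor of microglial identity that other neural cells also express, fell from 20.0 ± 0.873 to 16.6 ± 0.6 FPKM (SD, n = 3; -0.25, limma adjusted p = 0.0297). After the coding length correction its limma adjusted p was 0.0778. The lectin gene *Siglech* (0 to 0.0549 FPKM) and the fructose transporter gene *Slc2a5* (0 to 0.0749 FPKM), singled out after their values were seen, were near 0 in all 6 libraries, as *P2ry12* was low among the 10 genes. *P2ry13*, the neighbour and relative of *P2ry12*, and *Gpr34*, also singled out afterwards, were low as well, at means of 1.64 and 2.0 FPKM. Other genes of the list, likewise singled out, were higher. *Fcrls* lay at 79.0 to 85.2 FPKM, *Golm1* at 29.3 to 31.5 FPKM and *Olfml3* at 16.9 to 20.4 FPKM. Of the 20 genes, 2 had means under 1 FPKM, and the median gene lay at 7.44 FPKM.

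The ligands of CSF1R and the signalling and transcription factors around it gave 13 tested genes, of which 1 rose and none fell by the limma test, where 10.9% of all tested genes passed. *Il34*, which encodes one of the ligands, rose from 9.69 ± 0.654 to 12.5 ± 0.809 FPKM (SD, n = 3; log2 difference 0.33, limma adjusted p = 0.031, or 0.0895 with the coding length correction). The other ligand gene, *Csf1*, was far more abundant, at 89.6 ± 1.05 and 82.4 ± 2.62 FPKM (SD, n = 3), and did not pass the test (-0.12, limma adjusted p = 0.0731). Their mean levels were thus 11.1 FPKM for *Il34* and 86.0 FPKM for *Csf1* in a preparation in which the receptor gene *Csf1r* averaged 53.2 FPKM.

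Among 11 tested genes of integrin, fractalkine and purinergic partners, none passed the limma test in either direction (0 at an unadjusted p under 0.05 and 0 with robust eBayes), and the groups overlapped for all 11. Over all tested genes, 10.9% passed, 31.3% had an unadjusted p under 0.05 and 36.9% had groups without overlap. With robust eBayes, 1549 of 12255 genes passed. Figures for single genes of the list follow. *Itgb5* (166 and 161 FPKM in the mock and quinpirole groups) and *Itgav* (52.8 and 53.5 FPKM) were the highest of the 11. *Itgb2*, whose product pairs with CD11b, was at 15.1 ± 0.446 and 15.0 ± 1.31 FPKM (SD, n = 3) with a log2 difference of -0.01, whereas *Itgam* differed by -0.22. *Cx3cl1*, which encodes fractalkine, was at 43.4 ± 2.53 and 44.1 ± 0.963 FPKM (SD, n = 3). These last 2 were named as the partners of the 10 genes.

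The list around TREM2 and TYROBP signalling was not limited to downstream genes. Of its 17 tested genes 1 fell and none rose, against 5.18% of all tested genes that fell and 5.74% that rose. The gene that fell was *Siglec1*, a sialic acid-binding receptor of macrophages whose product is not part of the TREM2 pathway proper, from 2.91 ± 0.153 to 2.17 ± 0.145 FPKM (SD, n = 3; log2 difference -0.30, limma adjusted p = 0.0404, or 0.232 with the coding length correction). *Syk*, the kinase that docks on TYROBP, lay at 3.73 ± 0.129 and 3.33 ± 0.203 FPKM (SD, n = 3) and did not pass the test (limma adjusted p = 0.217). *Plcg2*, a phospholipase activated by SYK, was at 8.03 ± 0.318 and 7.69 ± 0.112 FPKM (SD, n = 3), with a log2 difference of -0.05.

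The complement C1q and Fc receptor genes, which microglia express strongly, gave 9 tested genes, none of which passed the limma test. Of the 9, 1 had an unadjusted p under 0.05 and 1 passed with robust eBayes. Over all tested genes, 10.9% passed, 31.3% had an unadjusted p under 0.05 and 1549 of 12255 passed with robust eBayes. The median log2 difference of the 9 genes was 0.13, which became 0.02 after the coding length correction. *C1qa* was at 206 ± 9.48 and 238 ± 14.1 FPKM (SD, n = 3; limma adjusted p = 0.0526) and *C1qc* at 189 ± 14.6 and 208 ± 14.1 FPKM (SD, n = 3; limma adjusted p = 0.214). Both were thus above every one of the 10 microglia genes.

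In the lysosomal and phagocytic list, 5 genes passed the test as higher and none as lower among 19 tested genes, where 5.74% of all tested genes passed as higher and 5.18% as lower. *Lgals3*, encoding galectin-3, rose from 241 ± 16.7 to 317 ± 13.8 FPKM (SD, n = 3; log2 difference 0.39, limma adjusted p = 0.0225). The tetraspanin gene *Cd63* rose from 552 ± 22.0 to 670 ± 23.1 FPKM (SD, n = 3; 0.28, limma adjusted p = 0.0246). *Npc2*, a cholesterol carrier, rose from 71.8 to 84.5 FPKM (limma adjusted p = 0.0296) and *Hexa*, a lysosomal enzyme gene, from 119 to 130 FPKM (limma adjusted p = 0.042). Astrocytes and other cells also use these lysosomal genes, and in bulk RNA the cell of origin was not measured. After the coding length correction, 2 genes of the list were called higher and 1 lower, where 1.74% of all tested genes were called in either direction. Those called higher were *Lgals3* (0.27, limma adjusted p = 0.044) and *Cd63* (0.15, limma adjusted p = 0.044). The gene called lower was *Laptm5* (-0.21, limma adjusted p = 0.0437), which had not passed without the correction (limma adjusted p = 0.0993). *Npc2* (limma adjusted p = 0.0536) and *Hexa* (limma adjusted p = 0.192) were not called.

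Of 13 tested genes of disease-associated microglia, the state described around amyloid plaques, 2 rose and none fell, against 10.9% of all tested genes that passed in either direction. These were the tetraspanin gene *Cd9*, from 329 ± 12 to 376 ± 14.4 FPKM (SD, n = 3; log2 difference 0.19, limma adjusted p = 0.0399), and the fatty acid-binding protein gene *Fabp5*, from 85.8 ± 1.82 to 95.9 ± 2.85 FPKM (SD, n = 3; 0.16, limma adjusted p = 0.0419). Neither gene is restricted to microglia, and after the coding length correction their adjusted p-values were 0.128 and 0.683. Of 13 tested cytokine and activation genes, *Il6ra*, the receptor subunit for interleukin-6, fell from 14.1 ± 0.716 to 11.9 ± 0.355 FPKM (SD, n = 3; -0.22, limma adjusted p = 0.0438, or 0.066 with the coding length correction) and none rose, against 10.9% of all tested genes that passed in either direction. None of 9 tested immediate early genes passed the limma test (0 at an unadjusted p under 0.05 and 0 with robust eBayes). Over all tested genes, 10.9% passed and 31.3% had an unadjusted limma p under 0.05. With robust eBayes, 1549 of 12255 passed. The highest of the immediate early genes were *Dusp1*, at 121 and 125 FPKM, and *Jun*, at 55.7 and 52.8 FPKM in the mock and quinpirole groups.

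Of 16 tested pan-leukocyte genes, which microglia share with other leukocytes, 1 fell and none rose, against 5.18% of all tested genes that fell. *Arhgap45* fell from 12 ± 0.102 to 9.62 ± 0.459 FPKM (SD, n = 3; log2 difference -0.29, limma adjusted p = 0.0251). Of the border macrophage markers, 5 were tested. *Stab1* fell from 54.0 ± 2.58 to 38.4 ± 2.83 FPKM (SD, n = 3; -0.48, limma adjusted p = 0.0225), and *Pf4*, a platelet and macrophage chemokine, rose from 1.09 ± 0.201 to 2.17 ± 0.349 FPKM (SD, n = 3; 0.60, limma adjusted p = 0.0258). With the coding length correction the adjusted p-values of *Arhgap45*, *Stab1* and *Pf4* were 0.0498, 0.0514 and 0.0825. Some markers of other cells also differed between the groups. Of 11 tested astrocyte markers 3 fell and none rose, namely *Slc1a2* (8.10 to 5.82 FPKM), *Atp1b2* (178 to 156 FPKM) and *Slc4a4* (45.1 to 36.8 FPKM). Of 4 tested endothelial and mural markers 1 fell, *Pdgfrb* (26.2 to 21.2 FPKM), whereas *Acta2* (2590 and 2790 FPKM) did not pass although its quinpirole libraries were all higher. Of 3 tested neuron markers 1 rose, *Stmn2* (54.5 to 63.8 FPKM). None of 6 tested oligodendrocyte lineage markers and none of 4 tested ependymal markers passed. Beside these counts, 5.18% of all tested genes fell and 5.74% rose by the same test. With the coding length correction the adjusted p-values were 0.181 for *Slc1a2*, 0.0498 for *Atp1b2*, 0.0626 for *Slc4a4*, 0.0479 for *Pdgfrb* and 0.0611 for *Stmn2*. The part of these markers in the values of the microglia genes was not tested.

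To describe which genes varied most like the 10 over the 6 libraries, the mean of their z-scores was correlated with every tested gene, without a test, since all points share the same libraries. The mean z-score was -0.57, 0.16 and -0.03 in the mock and -0.24, 0.63 and 0.06 in the quinpirole libraries. It was lowest in the first mock and highest in the second quinpirole library. The 10 genes were not alike in this respect, and their own correlations with the score ran from -0.211 for *Csf1r*, over 0.171 for *P2ry12*, to 0.787 for *Tmem119* and 0.828 for *Cd68*. Inside the microglia and leukocyte lists, the genes most like the score were *Was* (r = 0.929), *Rac2* (r = 0.919), *C3ar1* (r = 0.907), *Ms4a6d* (r = 0.903) and *Lcp1* (r = 0.888), over n = 6 libraries. Outside the lists, *Ptgr2* (r = 0.995), *Ddx51* (r = 0.986), *Mdfi* (r = 0.98), *Vipas39* (r = 0.978) and *Slc30a5* (r = 0.973) had the highest correlations. That pool is far larger than the lists, so its highest values are not comparable with theirs.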

How the data were processed

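RNA was sequenced from ACSA-2-selected brain cells in 6 libraries, 3 per group by the labels' treatment field. The authors trimmed the reads, mapped them with TopHat2 (the submitters' processing notes name GRCm38, and the version is not given in the sources used here) and deposited FPKM values, 1 per gene and library. The program that computed FPKM is not given in the sources used here. Of 17193 Ensembl identifiers, 17090 were matched to symbols. Positions, exon overlaps and lengths came from GENCODE M21 on GRCm38, and promoter windows from RefSeq on GRCm38.p6. The kit is not stated to mark strand.

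limma 3.58.1 (R 4.3.3; lmFit, eBayes with trend, two-sided, Benjamini-Hochberg over all tested genes, threshold 0.05) was run on log2(FPKM + 1) for genes with a mean of at least 1 FPKM, after the code was tested on simulated data. Tables were handled with pandas 2.3.3 and scipy 1.17.1 and figures drawn with matplotlib 3.10.9 (Python 3.11.15). The deposited FPKM tables hold no counts. Depth was estimated from the steps of low values over 1254 genes with 1 transcript and at least 2000 exonic nucleotides. Between 59.6% and 67.8% of these values lay within 0.1 of a whole number, against 20% by chance. Over 680 genes, every pair of libraries differed by more than sampling noise (2.39 to 6.85 times).

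The genes and lists were chosen with earlier results of these data known. All 10 microglia genes were named. From each other list the named genes were those past the threshold with groups that did not overlap, up to 4 by p, or the 2 highest where none passed. Genes named by pattern were the 5 inside and 5 outside the lists with the highest correlation. Markers of other cells were named where they were near 0 or were among the 2 highest of their list. *Csf1*, *Spi1*, *Itgb2*, *Cx3cl1*, *Syk* and *Plcg2* were added as partners of the 10 genes. The result for 1 gene of the wider homeostatic list is not reported here. The alternatives were another pseudocount (0.1), other filters (none, or 5 FPKM), median ratio scaling, quantile normalization, robust or untrended eBayes, a replicate block, loess corrections (span 0.3) for exonic or coding length and GC content, other classes and each library left out.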

Additional observations from a re-analysis of the deposited data

How the results depend on the processing

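For the 10 microglia genes, 189 values under alternatives were set against the reported ones: 167 kept direction and side of the threshold, 7 passed it newly and 15 changed sign. With limma, none of the 10 passed as reported, 2 passed with a minimum of 5 FPKM (*Csf1r*, adjusted p 0.0453, and *Itgam*, 0.0468) and with robust eBayes (0.0478 and 0.0473), and 1, *Csf1r*, passed with median ratio scaling (0.0487), quantile normalization (0.04) and without the third mock library (0.0485), so leaving out libraries gave 0 to 1. Over all alternatives the log2 difference of *Csf1r* ran from -0.21 to -0.11 and that of *Itgam* from -0.26 to -0.18. Signs changed with the exonic length correction for *Tmem119* (-0.00), *P2ry12* (-0.02), *Tyrobp* (-0.03) and *Ctss* (-0.03), with length and GC corrections for *P2ry12* (-0.09), *Tyrobp* (-0.00) and *Ctss* (-0.06), with the coding length correction, chosen after seeing the data, for *Trem2* (-0.04), *Tyrobp* (-0.03) and *Ctss* (-0.00), and without the first mock library for *P2ry12* (-0.01, in a range of -0.01 to 0.12 over the libraries left out). The change in homeostatic minus phagocytic level, -0.16, became -0.05 with the coding length correction, -0.04 with *Aif1* and *Itgam* in the classes, and -0.21 to -0.10 with 1 library left out. The cause of these moves was not tested. Over all genes, 1339 passed (52.6% higher), against 633 without a filter, 788 with quantile normalization (36.4% higher), 714 without the trend (41.0% higher), 490 with the exonic length correction, 319 with length and GC corrections and 213 with the coding length correction. It was 6, 3, 11, 25 and 214 without mock library 1 or 2 or quinpirole library 1, 2 or 3, and 1182 without mock library 3, a range of 3 to 1182. Depth limits *P2ry12* most. With the replicate number as a block, 2 genes passed (3308 at an unadjusted p under 0.05), and with the block and the exonic length correction 0 by limma (2728 unadjusted), in which *Tmem119* (-0.00), *P2ry12* (-0.02), *Tyrobp* (-0.03) and *Ctss* (-0.03) again changed sign. No microglia gene passed with the block (3 unadjusted; adjusted p 0.119 for *Csf1r* and 0.0937 for *Itgam*). Same-numbered deviations from the group means correlated at 0.026, -0.066 and -0.103, and no library correlated best with its own number. With 3 libraries per group these values cannot decide whether the numbers pair the libraries, and the labels do not say.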

Other observations

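A pair of leukocyte genes had 1 library far from the others, singled out after their values were seen. *C5ar1*, the receptor for complement C5a, measured 2.99 FPKM in the first mock library and 14.9 to 17.5 FPKM in the other 5. *Vsir*, an immune checkpoint gene, measured 11.5 FPKM in the third mock library and 21.0 to 22.3 FPKM in the other 5. Neither passed the limma test (adjusted p = 0.403 and 0.317).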
